A study of Mus musculus with 19 samples.

Results

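The genes described are those of the citric acid cycle and of its carbon supply: pyruvate entry, the cycle enzymes, the reactions that refill or drain the cycle, and the mitochondrial carriers of its metabolites. Of 33 genes listed by name, 32 had a transcript cluster with that symbol alone in the deposited table, out of 22180 genes tested; Mpc2 had none, so its expression is not analysed here. Where a gene had more than 1 such cluster (Suclg2, Mpc1, Me3 and Got2), the cluster that was brightest on average across the 19 arrays stands for it. Its members were named for their function and not by a cutoff on measured values, though with earlier results of these data known.

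RNA was measured on 19 Affymetrix mouse arrays in 3 experiments on loss of Med1, which encodes a subunit of the Mediator complex that contacts nuclear receptors. In embryonic interscapular brown fat at E17.5, 4 arrays of Myf5-Cre Med1 f/f embryos were set against 3 arrays of Myf5-Cre Med1 f/w embryos, so the controls also carry the Cre and 1 floxed allele. Myf5-Cre acts in Myf5-lineage precursors, which give rise to skeletal muscle as well as brown fat. In adult interscapular brown fat at 10 weeks, 2 arrays of Adipoq-Cre Med1 f/f mice were set against 2 arrays of Med1 f/f mice without the Cre, which acts in mature adipocytes. In 3T3-L1 cells, a mouse preadipocyte line that becomes adipocytes under a hormone mix, CRISPR/Cas9 MED1-KO cells were set against their parental WT line at day 2 and day 0 of differentiation, with 2 arrays in each of the 4 groups. The KO arrays held RNA pooled from individual clones, so loss of MED1 and differences that arose by cloning cannot be told apart. Nothing in the labels says whether replicates were separate animals or cultures, so a p-value measures the spread between these arrays.

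Pyruvate crosses the inner mitochondrial membrane through the pyruvate carrier and is turned into acetyl-CoA by the pyruvate dehydrogenase complex, or into oxaloacetate by pyruvate carboxylase, encoded by Pcx. The cycle oxidises the acetyl group and hands electrons to the respiratory chain, and in brown fat this oxidation feeds heat production through UCP1. In adipocytes pyruvate carboxylase also replaces the oxaloacetate that leaves the mitochondrion as citrate for fatty acid synthesis, and brown fat is rich in all of these enzymes.

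Promoter windows of 300 bases (250 before and 50 after the annotated start) were matched for 30 of the 33 genes, 37 windows in all, from RefSeq on GRCm38.p6. The windows of succinyl-CoA synthetase are shown because Sucla2 and Suclg1 had the lowest fold changes of the cycle enzymes in embryonic knockout fat, while Suclg2 had a value of opposite sign to theirs in the adult. Suclg1 encodes the alpha subunit, and Sucla2 and Suclg2 the alternative beta subunits for ADP and GDP. Pcx is shown because it had the widest change between days in the cells, and it has an upstream and a downstream window. Capitals mark AGGTCA, the nuclear receptor hexamer, on either strand, or another searched motif.
Sucla2, chr14:73552536-73552835, plus strand: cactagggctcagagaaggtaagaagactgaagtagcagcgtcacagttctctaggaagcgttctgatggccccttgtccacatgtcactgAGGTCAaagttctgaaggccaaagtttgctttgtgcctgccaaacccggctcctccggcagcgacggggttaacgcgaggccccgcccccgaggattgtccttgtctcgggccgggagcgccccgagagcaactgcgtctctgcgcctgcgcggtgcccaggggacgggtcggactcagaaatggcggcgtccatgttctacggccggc
Suclg1, chr6:73248255-73248554, plus strand: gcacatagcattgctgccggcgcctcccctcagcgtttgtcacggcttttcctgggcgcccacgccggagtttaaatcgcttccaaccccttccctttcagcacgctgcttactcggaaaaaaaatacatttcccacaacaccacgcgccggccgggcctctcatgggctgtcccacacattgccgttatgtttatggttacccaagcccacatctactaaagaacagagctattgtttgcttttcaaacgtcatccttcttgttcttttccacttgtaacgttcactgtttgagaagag
Suclg2, chr6:95718797-95719096, minus strand: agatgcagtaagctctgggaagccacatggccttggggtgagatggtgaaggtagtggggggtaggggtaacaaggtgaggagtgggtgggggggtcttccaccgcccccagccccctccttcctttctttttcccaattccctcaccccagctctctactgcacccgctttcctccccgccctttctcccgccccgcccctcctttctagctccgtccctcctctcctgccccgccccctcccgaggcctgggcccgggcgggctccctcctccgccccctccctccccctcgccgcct
Pcx upstream, chr19:4510222-4510521, plus strand: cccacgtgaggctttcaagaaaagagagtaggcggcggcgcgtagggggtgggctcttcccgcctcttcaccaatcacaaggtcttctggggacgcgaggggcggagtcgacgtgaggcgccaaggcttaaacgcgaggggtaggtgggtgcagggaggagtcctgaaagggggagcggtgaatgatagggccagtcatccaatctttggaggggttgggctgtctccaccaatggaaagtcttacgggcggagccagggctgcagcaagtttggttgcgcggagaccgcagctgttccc
Pcx downstream, chr19:4594069-4594368, plus strand: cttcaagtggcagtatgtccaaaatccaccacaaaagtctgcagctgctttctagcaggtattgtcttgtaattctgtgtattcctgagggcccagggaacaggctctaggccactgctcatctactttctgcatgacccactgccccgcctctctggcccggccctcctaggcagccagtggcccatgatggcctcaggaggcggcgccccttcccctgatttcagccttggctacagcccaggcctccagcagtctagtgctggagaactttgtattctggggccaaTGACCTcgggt

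Among these windows, AGGTCA lay at -159 in Sucla2 on the strand of the gene and at 39 in the downstream window of Pcx on the opposite strand, counted from the start. The windows of Suclg1 and Suclg2 held none of the 4 motifs searched on both strands. AGGTCA was in 8 of the 37 windows (21.6%), against 16.3% of 32851 windows of all genes. The estrogen-related receptor element TCAAGGTCA, which contains AGGTCA, was in 0 of 37 windows and in 0.42% of all. The C/EBP motif TTGCNNAA was in 6 windows (16.2%, of Dld, Mpc2, Ogdh, Pdhb and Slc25a12), against 10.8% of all, and the NRF-1 core GCATGCGC in 3 windows (8.11%, of Glud1 and Ogdh), against 2.71%. Both of these counts include overlapping Ogdh windows that hold the same site. By gene, the C/EBP motif was in 5 of 30, against 12.2% of all genes, and the NRF-1 core in 2 of 30, against 3.05%. These are counts of letters and say nothing of binding.

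Values are log2 RMA signals, and fold changes are on that scale with their standard error after ±. The experiments look normalized in separate runs, since the median signal of an array was 2.87 to 2.89 in adult fat, 3.49 to 3.57 in embryonic fat and 4.69 to 4.79 in the cells, so no level is compared between them. Med1 itself was 7.08 ± 0.07 in KO cells against 8.39 ± 0.16 in WT cells (SD, n = 4 each; limma adjusted p = 0.0011). In the adult it was 5.28 and 5.13 in Adipoq-Cre Med1 f/f fat against 5.995 and 6.90 in Med1 f/f fat (adjusted p = 0.19), and in the embryo 7.02 ± 0.11 in Myf5-Cre Med1 f/f fat (n = 4) against 7.36 ± 0.44 in Myf5-Cre Med1 f/w fat (n = 3, limma adjusted p = 0.369). Where the probes of the cluster lie relative to the deleted part of the gene is not known here, so the fat values do not check the labels. For no measured gene of the list were all arrays of a group below their lower quartile of all 41345 transcript clusters. Slc25a13 lay just above it in adult fat, at 2.29 to 2.48, where the quartile was 2.22 to 2.24.

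In embryonic brown fat, cycle and pyruvate dehydrogenase genes were lower in knockout fat and an aspartate-glutamate carrier was higher. Of 32 genes, 6 fell and 1 rose at an adjusted p under 0.05 by limma over all 22180 genes, where 1.16% of all genes were called. Before adjustment, 23 genes were lower and 3 higher at p under 0.05, and 71.9% of the list was thus lower, against 9.13% of all genes. The median log2 fold change was -0.47 for the list and -0.01 for all genes. The f/f arrays lay wholly below the f/w arrays for 17 genes and wholly above for 3, shares that were 6.83% and 8.56% over all genes. In whole fat, fewer cells of a type and less RNA per cell cannot be told apart.

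**Figure D1:**
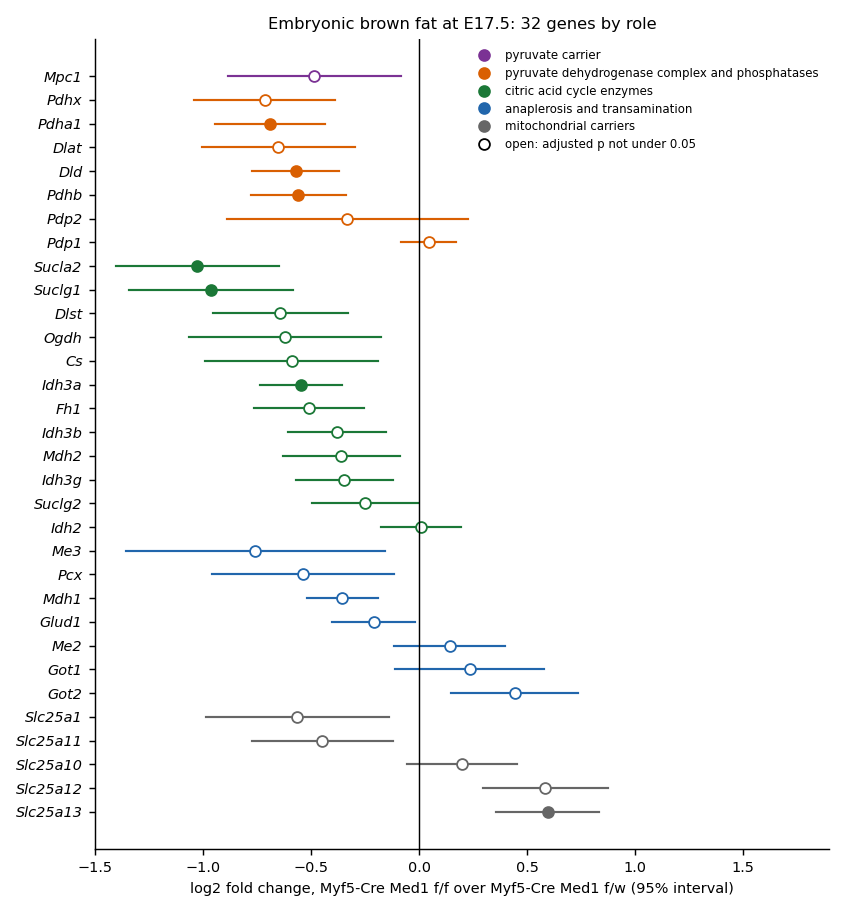
Log2 fold change of the 32 genes in E17.5 brown fat, Myf5-Cre Med1 f/f over Myf5-Cre Med1 f/w, with 95% intervals, coloured by role. Filled points passed the adjusted threshold: 6 lie between -1.03 and -0.55 and Slc25a13 lies at 0.60.

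Pyruvate dehydrogenase is built of E1 (Pdha1 and Pdhb), E2 (Dlat), E3 (Dld) and an E3-binding protein (Pdhx). Pdha1, the catalytic E1 alpha subunit, had 9.31, 9.73, 9.58 and 9.52 in f/f fat, against 10.17, 10.14 and 10.36 in f/w fat. Pdhb, the E1 beta subunit, had 10.82, 10.97, 10.74 and 10.72 in f/f fat, against 11.52, 11.21 and 11.39 in f/w fat. Dld, the dihydrolipoamide dehydrogenase shared with the oxoglutarate dehydrogenase complex, had 10.72, 10.79, 10.72 and 10.84 in f/f fat, against 11.44, 11.14 and 11.43 in f/w fat. For each of the 3 genes every f/f array was below every f/w array. Pdha1 fell by 0.69 ± 0.11 (limma adjusted p = 0.0460), Pdhb by 0.56 ± 0.09 (adjusted p = 0.0485) and Dld by 0.57 ± 0.09 (adjusted p = 0.0459). The other core subunits had similar values that missed the threshold, -0.72 for Pdhx (limma adjusted p = 0.062) and -0.65 for Dlat (0.0775). The phosphatases that switch the complex on had 0.04 ± 0.05 (Pdp1) and -0.33 ± 0.24 (Pdp2). Mpc1, a subunit of the pyruvate carrier, had -0.48 ± 0.17 (limma adjusted p = 0.179).

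Of 12 cycle enzymes, 3 fell, 11 had a negative value and the median was -0.53. Sucla2 had 8.52, 8.73, 8.92 and 8.44 in f/f fat, against 9.47, 9.57 and 9.99 in f/w fat. Suclg1 had 7.84, 7.72, 7.83 and 7.51 in f/f fat, against 8.54, 8.44 and 9.07 in f/w fat. Idh3a, the catalytic subunit of NAD-dependent isocitrate dehydrogenase, had 10.56, 10.80, 10.61 and 10.59 in f/f fat, against 11.11, 11.14 and 11.31 in f/w fat. In each, the groups did not overlap, and f/w array 3 was the highest of all. Sucla2 was 2.04-fold lower (log2 -1.03 ± 0.16, limma adjusted p = 0.0460), Suclg1 1.95-fold lower (-0.96 ± 0.16, adjusted p = 0.0485) and Idh3a fell by 0.55 ± 0.08 (adjusted p = 0.0459). Suclg2, the other beta subunit, had 8.76, 9.06, 9.06 and 8.99 in f/f fat, against 9.06, 9.22 and 9.38 in f/w fat. Its groups met at 9.06 without a gap (-0.25 ± 0.10, limma adjusted p = 0.237). Among cycle enzymes that missed the threshold, Dlst, the E2 of oxoglutarate dehydrogenase, had -0.64 (limma adjusted p = 0.0666), Ogdh, its E1, -0.62 (0.137), citrate synthase Cs -0.59 (0.122) and fumarase Fh1 -0.51 (0.0695). Idh2, the NADP-dependent isocitrate dehydrogenase of the matrix, stood at 10.02 ± 0.08 in f/f fat (n = 4) and 10.01 ± 0.13 in f/w fat (SD, n = 3; limma adjusted p = 0.96).

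**Figure D2:**
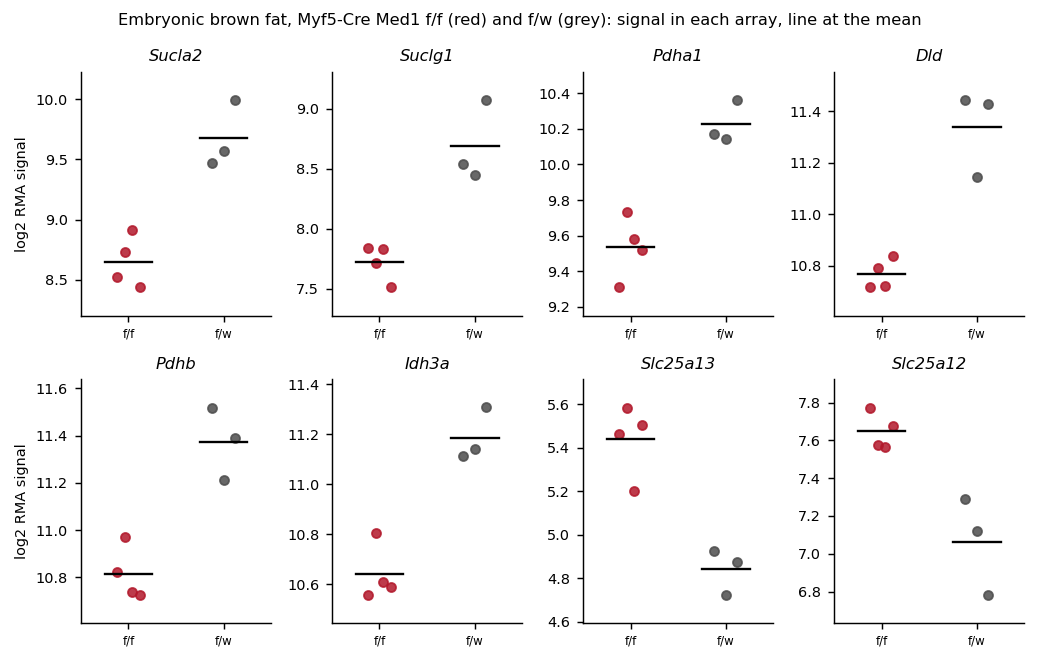
Log2 signal of 8 genes in each embryonic array, Myf5-Cre Med1 f/f left of Myf5-Cre Med1 f/w, with a line at the group mean. The groups do not overlap in any panel; 6 genes are lower and the carriers Slc25a13 and Slc25a12 higher in f/f fat.

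The carriers and the transaminases did not share one direction. Slc25a13 and Slc25a12 encode the aspartate-glutamate carriers (citrin and aralar) of the malate-aspartate shuttle. Slc25a13 had 5.46, 5.59, 5.20 and 5.50 in f/f fat, against 4.93, 4.72 and 4.88 in f/w fat, and rose 1.51-fold (0.60 ± 0.10, limma adjusted p = 0.0496). Slc25a12 had 7.77, 7.58, 7.56 and 7.68 in f/f fat, against 7.29, 7.12 and 6.78 in f/w fat, without overlap (0.58 ± 0.12, limma adjusted p = 0.0688). Got2, the mitochondrial aspartate aminotransferase of the same shuttle, had 9.62, 9.89, 9.82 and 9.66 in f/f fat, against 9.24, 9.58 and 9.10 in f/w fat (0.44 ± 0.12, adjusted p = 0.117). These 3 were the members whose f/f arrays all lay above the f/w arrays. The remaining shuttle genes had -0.45 for the oxoglutarate carrier Slc25a11, -0.36 for cytosolic malate dehydrogenase Mdh1 (limma adjusted p = 0.0622) and 0.24 for cytosolic Got1. The citrate carrier Slc25a1, which exports citrate for lipid synthesis, had -0.56 ± 0.18 (limma adjusted p = 0.15) and the dicarboxylate carrier Slc25a10 0.20 ± 0.11. Of 7 genes of anaplerosis and transamination, 0 were called by limma, while 4 were lower and 1 higher at an unadjusted p under 0.05. Pcx had 7.57, 7.97, 7.97 and 7.57 in f/f fat, against 7.97, 8.34 and 8.62 in f/w fat (-0.54 ± 0.18, adjusted p = 0.162). Me3, an NADP-dependent mitochondrial malic enzyme, had 3.31, 3.10, 3.72 and 3.69 in f/f fat, against 3.73, 4.18 and 4.73 in f/w fat (-0.76 ± 0.25, adjusted p = 0.164).

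The embryonic calls lay close to the threshold. Leaving out any of the 7 arrays left 0 of 32 genes called, and 0 of all genes, with the lowest adjusted p among the members at 0.0515 to 0.12 and their median log2 fold change at -0.51 to -0.38. The fit with all 19 arrays called 20 members, 17 lower and 3 higher. The f/w array 3 stood apart from the other f/w arrays: its members' median deviation from the f/w mean was 0.13, against -0.09 and -0.04, and without it the list's median was -0.38. Of the 17 skeletal muscle markers, 16 had a positive value and 1 a negative one. The mean log2 level of the 17 was 7.53 to 7.74 in f/f fat and 5.92 to 7.08 in f/w fat. Its lowest value was in f/w array 3 (6.97 and 7.08 in the others), and no marker was below the lower quartile in all arrays. By limma 0 were called, and at an unadjusted p under 0.05, 14 were higher and 1 lower (-0.49). Of all 22180 genes, 2421 were higher and 2026 lower at that p. Fibroblast markers had a mean level of 9.02 to 9.17 in f/f fat and 8.30 to 8.72 in f/w fat, with 3 of 10 called higher. The 10 measured brown adipocyte markers had 7.16 to 7.74 in f/f fat and 8.43 to 9.02 in f/w fat, with 2 called lower, Ucp1 (8.79-fold) and Dio2 (3.16-fold). Mature adipocyte markers had 9.06 to 9.32 in f/f fat and 9.51 to 9.89 in f/w fat, with 10 of 10 lower at an unadjusted p under 0.05, 0 called by limma and a median of -0.52. The part of these cell type signals in the values of the list was not tested.

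The neighbouring pathways also had negative medians. Of 42 other genes of the pathway, 2 fell: Acss1, the mitochondrial acetyl-CoA synthetase, was 3.06-fold lower (-1.61 ± 0.27, limma adjusted p = 0.0493) and Mmut, the methylmalonyl-CoA mutase that feeds succinyl-CoA to the cycle, 1.44-fold lower (-0.53 ± 0.08, adjusted p = 0.0459). The median of those 42 was -0.45. Of 18 genes of the respiratory chain and ATP synthase 2 fell (median -0.45), and of 16 fatty acid oxidation genes 5 fell (median -0.70).

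In adult brown fat, several cycle enzymes were lower and Me2, Suclg2 and Slc25a10 higher in knockout fat, but 0 of 32 genes passed limma's adjusted threshold, where 0.0271% of all genes (6) were called with 2 residual degrees of freedom. At an unadjusted p under 0.05, 7 members were lower (21.9%) and 4 higher; of all 22180 genes 5.83% were lower and 1720 higher. The median was -0.19, against 0.00 for all genes. Groups of 2 arrays did not overlap for 14 lower and 7 higher members, shares that were 20.1% and 21.8% over all genes. The fit with all 19 arrays, which borrows its spread from the other experiments, called 10 members, 7 lower and 3 higher.

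Ogdh had 10.56 and 10.40 in Adipoq-Cre Med1 f/f fat, against 11.49 and 11.34 in Med1 f/f fat (-0.94 ± 0.14, limma adjusted p = 0.0967). Cs, the entry enzyme of the cycle, had 10.47 and 10.26 in Adipoq-Cre Med1 f/f fat, against 11.38 and 11.07 in Med1 f/f fat (-0.86 ± 0.17, adjusted p = 0.133). Sucla2 had 9.57 and 9.74 in Adipoq-Cre Med1 f/f fat, against 10.44 and 10.38 in Med1 f/f fat (-0.76 ± 0.14, adjusted p = 0.12). In all 3 the genotypes did not overlap. Suclg1 had 8.90 and 8.80 in Adipoq-Cre Med1 f/f fat, against 9.61 and 9.49 in Med1 f/f fat (-0.69 ± 0.14, limma adjusted p = 0.13). Glud1, the glutamate dehydrogenase that makes oxoglutarate, had 8.56 and 8.42 in Adipoq-Cre Med1 f/f fat, against 9.23 and 9.15 in Med1 f/f fat (-0.70 ± 0.14, adjusted p = 0.13). Dlst and Idh3b, a regulatory subunit of isocitrate dehydrogenase, had -0.62 (limma adjusted p = 0.145) and -0.59 (0.156).

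Other members lay on the opposite side. Suclg2 had 9.63 and 9.78 in Adipoq-Cre Med1 f/f fat, against 9.13 and 8.97 in Med1 f/f fat (0.66 ± 0.15, limma adjusted p = 0.155), so the GDP-linked beta subunit was higher where its alpha partner Suclg1 and the ADP-linked Sucla2 were lower. Me2, the NAD-dependent mitochondrial malic enzyme, had 5.58 and 5.77 in Adipoq-Cre Med1 f/f fat, against 4.70 and 4.75 in Med1 f/f fat (0.95 ± 0.14, adjusted p = 0.0908). Slc25a10 had 5.50 and 5.03 in Adipoq-Cre Med1 f/f fat, against 4.44 and 4.47 in Med1 f/f fat (0.81 ± 0.19, adjusted p = 0.172). None of these passed the adjusted threshold, and in each the genotypes did not overlap. Me3 had the lowest fold change of the list with wide spread, 5.21 and 4.42 in Adipoq-Cre Med1 f/f fat, against 6.34 and 5.30 in Med1 f/f fat (-1.01 ± 0.42, limma adjusted p = 0.4). Got1 had 6.40 and 8.42 in Adipoq-Cre Med1 f/f fat, against 6.60 and 6.92 in Med1 f/f fat, so its mean rests on the second knockout array.

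**Figure D3:**
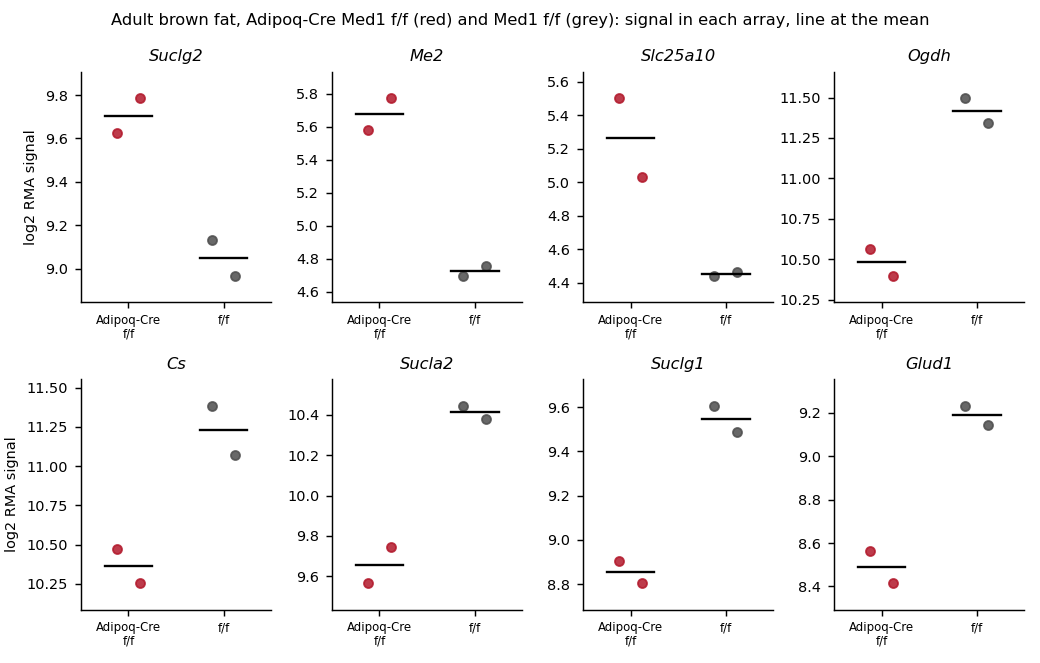
Log2 signal of 8 genes in each adult array, Adipoq-Cre Med1 f/f left of Med1 f/f, with a line at the mean of 2 arrays. Suclg2, Me2 and Slc25a10 are higher and Ogdh, Cs, Sucla2, Suclg1 and Glud1 lower in Adipoq-Cre Med1 f/f fat, without overlap; none passed the adjusted threshold.

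Pyruvate dehydrogenase genes, with the 2 phosphatases, had a median of -0.08 over 7 genes in the adult. Of these, 3 were positive, 4 negative and 0 at an unadjusted p under 0.05. Pdhb had 11.42 and 11.45 in Adipoq-Cre Med1 f/f fat, against 11.37 and 11.20 in Med1 f/f fat, and Pdha1 had -0.08 ± 0.13. Dlat had 8.98 and 8.85 in Adipoq-Cre Med1 f/f fat, against 9.40 and 9.08 in Med1 f/f fat. Pdhx had 7.57 and 7.76 in Adipoq-Cre Med1 f/f fat, against 7.95 and 7.91 in Med1 f/f fat. The cycle enzymes had a median of -0.47, with 6 lower and 1 higher at an unadjusted p under 0.05 and 0 called by limma. Of 42 other genes of the pathway 0 were called, with 14 lower and 4 higher at an unadjusted p under 0.05 and a median of -0.24. Fatty acid oxidation genes had a median of -0.46, with 9 of 16 lower and 0 higher at that p. Genes of the respiratory chain and ATP synthase had -0.24, with 5 of 18 lower and 0 higher. Limma called 0 in either list. Macrophage markers had a mean level of 6.87 to 6.95 in Adipoq-Cre Med1 f/f fat and 5.48 to 5.71 in Med1 f/f fat, with 7 of 7 higher at an unadjusted p under 0.05 and 0 called. Fibroblast markers had 7.04 to 7.23 in Adipoq-Cre Med1 f/f fat and 6.44 to 6.66 in Med1 f/f fat. Brown adipocyte markers had 8.10 to 8.47 in Adipoq-Cre Med1 f/f fat and 8.92 to 9.69 in Med1 f/f fat. Mature adipocyte markers, of the cells in which Adipoq-Cre acts, had 9.43 to 9.59 in Adipoq-Cre Med1 f/f fat and 10.10 to 10.18 in Med1 f/f fat, with 5 of 10 lower at an unadjusted p under 0.05, 0 called by limma and a median of -0.56. Muscle markers had 3.16 to 3.67 in Adipoq-Cre Med1 f/f fat and 3.24 to 4.15 in Med1 f/f fat. The part of these signals in the adult values was not tested.

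The difference between the adult and the embryonic knockout effect was tested in a fit of all 11 brown fat arrays. Suclg2 and Me2 passed, 2 of 32 genes, where 1.99% of all genes were called. For Suclg2 the adult effect of 0.66 exceeded the embryonic effect of -0.25 by 0.91 ± 0.17 (limma adjusted p = 0.0289). For Me2 the adult effect of 0.95 exceeded the embryonic effect of 0.14 by 0.81 ± 0.18 (limma adjusted p = 0.0477); its embryonic values were 6.52, 6.48, 6.42 and 6.86 in f/f fat, against 6.41, 6.40 and 6.48 in f/w fat. The next lowest p-values went with differences of 0.70 for Pdhb (limma adjusted p = 0.0521) and 0.53 for Mdh1 (0.0817), and those of all 7 pyruvate dehydrogenase genes were positive, with a median of 0.46. Of the 32 genes, 18 had a negative value in both experiments (56.2%), against 30.2% of all genes. A positive adult and a negative embryonic value went together in 6 of the 32 genes and in 5229 of all 22180 genes. Age, the Cre driver and the control genotype differ together between the experiments and cannot be told apart. Suclg2 kept an adjusted p under 0.05 without 4 of the 11 arrays in turn and lost it (up to 0.0845) without the f/f replicates 2, 3 or 4 or the f/w replicates 2 or 3 of the embryo, or without the second array of either adult group. Me2 kept it only without the fourth embryonic f/f array, and its adjusted p was up to 0.13 without any other. Me2 also lost it with quantile normalization, median-centred arrays or trend and robust fitting (limma adjusted p up to 0.0708).

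**Figure D4:**
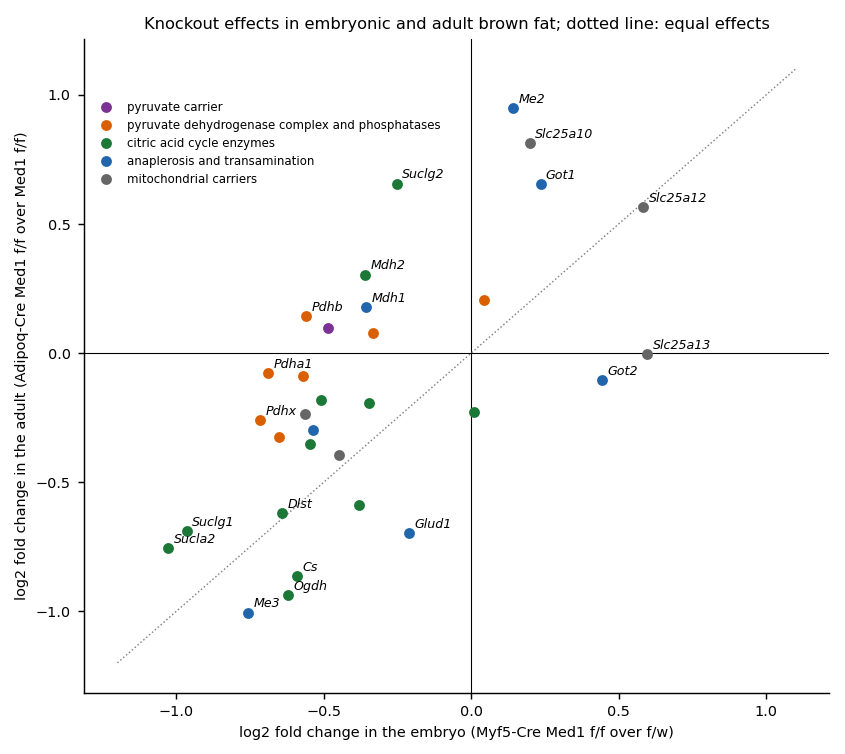
Log2 fold change of each gene in adult brown fat (Adipoq-Cre Med1 f/f over Med1 f/f, vertical) against that in embryonic brown fat (Myf5-Cre Med1 f/f over f/w, horizontal), coloured by role, with a dotted line at equal effects. Sucla2, Suclg1, Ogdh, Cs, Dlst and Me3 lie low on both axes, the 5 core pyruvate dehydrogenase genes lie left with adult values between -0.32 and 0.14, and Suclg2 and Me2 lie well above the line.

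In 3T3-L1 cells the day is given differently by the title and by the source label of 4 of 8 arrays: those titled day 2 replicate 1 and day 0 replicate 2, of either genotype, carry the other day. Titles are used here, and both labels pair the same KO and WT arrays. Between titled days limma called 2012 of all genes in WT cells and 1265 in KO cells. Between the days of the source label it called 0 in either. Glul, glutamine synthetase, lay at 6.27 and 6.42 in WT arrays titled day 0 and at 9.77 and 10.04 in those titled day 2. In KO cells it lay at 6.71 and 6.87, against 10.27 and 10.39, so its signal followed the titles. The pairs rest on the replicate number, and that pairing is not established. Over the 4 pairs, 0 of 32 members were called between KO and WT cells by limma (0.289% of all genes were), with 1 higher and 4 lower at an unadjusted p under 0.05, which is 15.6% of the list in either direction, against 12.3% of all genes. The median was -0.07, against 0.00 for all genes. The members named next were picked among those with the same sign in all 4 pairs. That sign is therefore no added support, and its share over all genes was not counted. Slc25a10 was lower in KO cells in 4 of 4 pairs (-0.52 ± 0.14, limma adjusted p = 0.212), as was Pcx (-0.47 ± 0.14, adjusted p = 0.256). Sucla2 was higher in 4 of 4 pairs (0.22 ± 0.08, limma adjusted p = 0.337), unlike its negative values in both brown fat experiments; those differences between experiments were not tested. Sucla2 stood at 7.53 and 7.502 in KO cells and 7.45 and 7.26 in WT cells at day 2, and at 7.66 and 7.59 in KO cells and 7.49 and 7.20 in WT cells at day 0. Dlst was also higher in 4 of 4 pairs (0.18 ± 0.08, limma adjusted p = 0.413), with 8.81 and 8.82 in KO cells and 8.68 and 8.74 in WT cells at day 2, and 8.59 and 8.60 in KO cells and 8.28 and 8.39 in WT cells at day 0. Idh3a was lower in 4 of 4 pairs (-0.23 ± 0.10, limma adjusted p = 0.401), with 7.51 and 7.64 in KO cells and 7.90 and 8.07 in WT cells at day 2. At day 0 its genotypes were close, 7.61 and 7.59 in KO cells and 7.70 and 7.59 in WT cells. Of 42 other genes of the pathway 1 was called: Pdk4, the kinase that switches pyruvate dehydrogenase off, was 2.52-fold lower in KO cells (-1.33 ± 0.08, limma adjusted p = 0.00072).

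Between day 2 and day 0, pyruvate carboxylase rose most. Pcx had 8.27 and 8.15 at day 2, against 6.65 and 6.43 at day 0, in KO cells. In WT cells it had 9.13 and 8.89 at day 2, against 6.88 and 6.47 at day 0. The days did not overlap in either genotype: Pcx rose 3.18-fold in KO cells (1.67 ± 0.17, limma adjusted p = 0.000657) and 5.04-fold in WT cells (2.33 ± 0.17, adjusted p = 7.97e-05), and it passed whichever of the 8 arrays was left out. In KO cells 3 of 32 members rose (Pcx, Pdp1 and Idh2) and 0 fell, where 5.7% of all genes were called. In WT cells 3 rose (Pcx, Pdp1 and Glud1) and 0 fell, where 9.07% of all genes were called. The members' median change was 0.06 in KO cells and 0.22 in WT cells, against 0.01 and 0.03 for all genes. In the same order, the medians were 0.40 and 0.37 for 11 ribosomal protein genes and 0.14 and 0.24 for fatty acid oxidation. They were 0.12 and 0.19 for the respiratory chain and ATP synthase. With the day taken from the source label, which mixes the titled days, 0 members were called in either genotype, and the log2 value of Pcx was -0.17 in KO cells and -0.33 in WT cells.

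**Figure D5:**
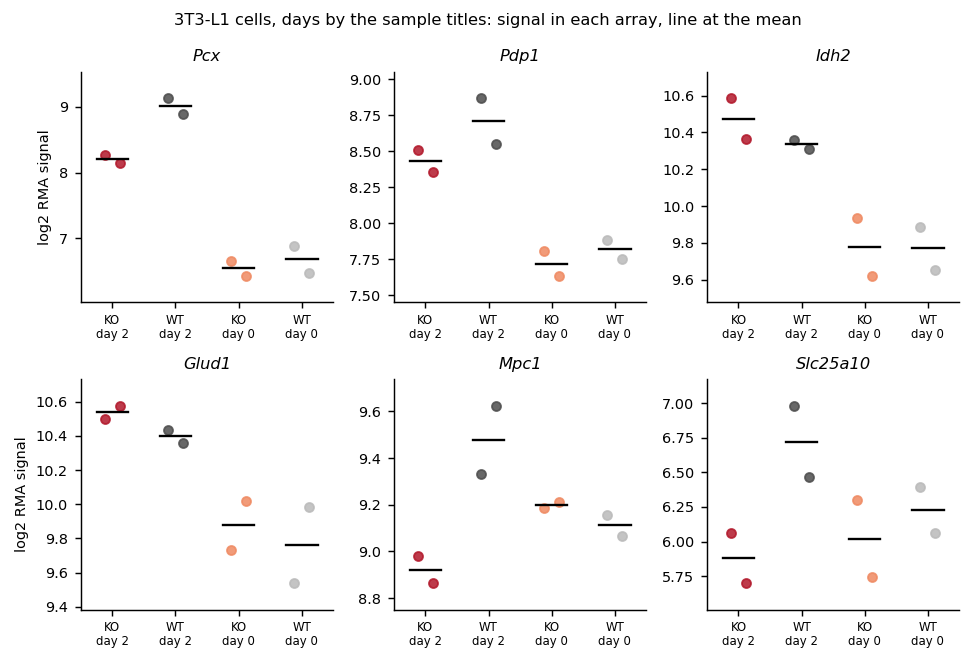
Log2 signal of 6 genes in each 3T3-L1 array by titled day, with KO left of WT at day 2 and then at day 0, and a line at the mean of 2 arrays. Pcx spans 6.43 to 9.13, and Mpc1 and Slc25a10 are highest in WT cells at day 2.

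Pdp1, the pyruvate dehydrogenase phosphatase, had 8.51 and 8.36 at day 2, against 7.80 and 7.64 at day 0, in KO cells. In WT cells it had 8.87 and 8.55 at day 2, against 7.89 and 7.75 at day 0. It rose by 0.71 ± 0.15 in KO cells (limma adjusted p = 0.0237) and by 0.89 ± 0.15 in WT cells (adjusted p = 0.0058), and without any 1 of the 4 KO arrays the KO call was lost (adjusted p up to 0.167). Idh2 had 10.58 and 10.37 at day 2, against 9.94 and 9.62 at day 0, in KO cells. In WT cells Idh2 had 10.36 and 10.31 at day 2, against 9.89 and 9.65 at day 0. The gain was 0.70 ± 0.15 in KO cells (limma adjusted p = 0.0308; up to 0.219 without any 1 of the 4 KO arrays), and the WT value was 0.56 ± 0.15 (adjusted p = 0.0542). Glud1 had 10.50 and 10.58 at day 2, against 9.73 and 10.02 at day 0, in KO cells, and 10.43 and 10.36 at day 2, against 9.54 and 9.98 at day 0, in WT cells. It rose by 0.63 ± 0.17 in WT cells (limma adjusted p = 0.0494), a call kept without the second WT day 0 array and lost (up to 0.256) without any other array, and had 0.66 ± 0.17 in KO cells (adjusted p = 0.0576). Slc25a13 stood at 6.42 and 6.40 at day 2, against 6.94 and 7.22 at day 0, in KO cells. In WT cells it stood at 6.52 and 6.72 at day 2, against 6.88 and 7.32 at day 0. The days did not overlap, and it had the lowest day change of the list, -0.67 ± 0.17 in KO cells (limma adjusted p = 0.0587) and -0.48 ± 0.17 in WT cells (adjusted p = 0.136).

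Me3 and Pdp2 were other members with lower values at day 2. Me3 had 4.85 and 5.20 at day 2, against 5.24 and 5.34 at day 0, in KO cells (-0.27 ± 0.16, limma adjusted p = 0.457), and 5.002 and 4.71 at day 2, against 5.16 and 5.17 at day 0, in WT cells (-0.31 ± 0.16, adjusted p = 0.303). Pdp2 had 5.72 and 5.49 at day 2, against 5.84 and 6.16 at day 0, in WT cells (-0.40 ± 0.21, limma adjusted p = 0.308). None of these passed. Days did not overlap for 13 members higher and 9 lower in KO cells, shares that were 24.6% and 23.3% over all genes, and for 17 higher and 3 lower in WT cells, against 26.6% and 22.2%.

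Other genes of the pathway changed with the day in either genotype. Glul, glutamine synthetase, which draws on glutamate, rose 11.7-fold in KO cells and 11.8-fold in WT cells (limma adjusted p = 9.69e-06 and 9.22e-06). Pck2, the mitochondrial PEP carboxykinase that uses oxaloacetate, was 1.86-fold lower at day 2 in KO cells and 1.71-fold lower in WT cells. Hlcs, the holocarboxylase synthetase that attaches biotin to pyruvate carboxylase, rose 1.75-fold in WT cells (limma adjusted p = 0.0041), and Ldha, lactate dehydrogenase A, 1.86-fold. In all, 4 of 42 rose and 5 fell in KO cells, and 7 rose and 3 fell in WT cells.

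At day 2, KO cells had lower values than WT cells for several members, and 0 of 32 were called by limma (0.266% of all genes were), with 5 lower (15.6%, against 4.45% of all genes) and 0 higher at an unadjusted p under 0.05. With the replicate number as a block, 2 members were called lower, Slc25a10 (limma adjusted p = 0.0338) and Pcx (0.0425); the pairing by number is not established at this day, which has 2 pairs. The median was -0.10, against -0.01 for all genes, and the KO arrays lay below the WT arrays for 17 members and above for 4, shares that were 18.9% and 17.4% over all genes. Pcx, with the values given above, had -0.80 ± 0.17 in KO cells (limma adjusted p = 0.155). Slc25a10 had 6.06 and 5.70 in KO cells at day 2, against 6.98 and 6.47 in WT cells at day 2 (-0.84 ± 0.24, adjusted p = 0.366). Mpc1 had 8.98 and 8.86 in KO cells at day 2, against 9.33 and 9.62 in WT cells at day 2 (-0.55 ± 0.14, limma adjusted p = 0.259). Idh3a had -0.41 ± 0.13 (limma adjusted p = 0.41) and Suclg1 -0.32 ± 0.13 (0.56). Mature adipocyte markers separated the genotypes at the same time: their mean level was 5.25 to 5.34 in KO cells and 6.29 to 6.35 in WT cells at day 2, with 5 of 10 called lower in KO cells, among them Pparg (4.03-fold) and Fabp4 (4.07-fold). Their part in the values of the list was not tested.

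At day 0, 0 members were called by limma (0.185% of all genes were) and 0 had an unadjusted p under 0.05, with a median of 0.00 for the list and 0.01 for all genes. The widest values at day 0 were 0.29 ± 0.14 for Sucla2 and 0.25 ± 0.12 for Dlst. Mdh2, mitochondrial malate dehydrogenase, had 10.20 and 10.35 in KO cells, against 9.97 and 10.16 in WT cells. Pdha1 had 8.60 and 8.48 in KO cells, against 8.73 and 8.67 in WT cells, and Idh3g, a regulatory subunit of isocitrate dehydrogenase, 9.56 and 9.54 in KO cells, against 9.65 and 9.74 in WT cells. The genotypes did not overlap for 9 higher and 2 lower members, shares that were 17.9% and 16.1% over all genes. For Mpc1 the arrays stood at 9.19 and 9.21 in KO cells, against 9.16 and 9.07 in WT cells. The difference of the day change, KO minus WT, called 0 members and 0 of all genes by limma (0%). At an unadjusted p under 0.05 it gave 3 members, each lower in KO cells, and over all genes 441 higher and 500 lower. Those 3 were Mpc1 at -0.64 ± 0.19, Pcx at -0.66 ± 0.24 and Suclg1 at -0.46 ± 0.18 (limma adjusted p = 0.998 or above). The median difference was -0.13 over the list, with 25 of 32 values negative, against 0.00 over all genes. The KO and WT day changes and the genotype comparison at day 2 use the same arrays and are not independent of each other.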

How the data were processed

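Per the labels' protocols, Trizol was used for total RNA and the GeneChip WT PLUS kit for its labelling. There were 19 arrays: 4 of adult brown fat, 7 of embryonic brown fat and 8 of 3T3-L1 cells. The authors deposited log2 values. The submitters' processing notes list Transcriptome Analysis Console and RMA; the build was not given in the sources used here. Of 41345 transcript clusters, 23521 had 1 gene symbol in the platform annotation, 1814 several and 16010 none, which gave 22180 genes, none removed for low signal. Groups came from the sample titles.

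Each experiment had its own fit in limma 3.58.1 under R 4.3.3, with lmFit and eBayes without a trend. Tests were two-sided, and p-values were adjusted by Benjamini-Hochberg over 22180 genes with a threshold of 0.05. KO and WT cells were compared over 4 pairs of arrays as a block, and by day in 1 fit of 4 groups. The arrays of a pair share the titled day and the replicate number, a pairing that is not established. Residual degrees of freedom were 3 for the pairs, 4 for the fit of 4 groups, 5 in the embryo, 2 in the adult and 7 for their difference. The number of arrays limits the precision. The fits were tested on simulated data. The genes and lists were chosen with earlier results of these data known. Values in every array are given for called members and for the 3 highest and 3 lowest fold changes without overlap in each comparison. Over the pairs, the same sign in all 4 took the place of no overlap. Members outside this rule were also given by array, picked with their values known. Among them are Sucla2, Suclg1, Glud1, Got1 and Pdhb in the adult, and Suclg2, Pcx and Me2 in the embryo. Genes of other lists were named from the 4 called ones with the lowest p in a comparison; Acss1, Mmut and, in WT cells, Hlcs, Ldha and Pck2 were chosen after their values were seen. Alternatives were other normalizations, filters, fits, cluster rules, day labels and left-out arrays. Same-numbered arrays were not shown to share an origin: their deviations correlated at 0.31, -0.02 and 0.11 in the embryo, and other groups have only 2 pairs. Of 7 endothelial, 3 erythroid, 3 Schwann cell and 11 ribosomal protein genes, limma called 0 in the embryo, with 0, 0, 1 (lower) and 8 (higher) at an unadjusted p under 0.05. Over all genes, 20.05% were at that p in either direction. The ribosomal protein genes had 11 positive values of 11 and a median of 0.29, opposite in sign to the list.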

Additional observations from a re-analysis of the deposited data

Results flagged for a closer look

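Among the 32 genes measured in the 4 Myf5-Cre Med1 f/f arrays, 3 had an array far from the others, with a gap to the nearest other array above Dixon's critical share of the group's range, which chance passes in about 1 of 20 groups. Idh2 was 9.90 in the fourth array and 10.06 to 10.08 in the others (0.908 of the range). Pdp1 was 5.65 in the first array and 5.60 in each of the others (0.962), and Pdp2 was 4.21 in the first array and 4.39 to 4.42 in the others (0.839). All of these gaps were under 0.2 on the log2 scale, and none of the 3 genes was called in the embryo.

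The knockout effect differed between adult and embryonic brown fat for Suclg2, by 0.91 on the log2 scale, and for Me2, by 0.81, in the test of the difference itself. The Me2 call was lost with quantile normalization, with median-centred arrays and with trend and robust fitting (limma adjusted p up to 0.0708). Of the other 30 genes, 0 passed that test by limma. At an unadjusted p under 0.05, the signed adult value lay above the embryonic value for 7 and below it for 3. A higher signed value does not mean an effect of larger size. At that p, 37.5% of the list and 16.3% of all genes differed in either direction.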

How the results depend on the processing

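Counts of called genes depended on the fit. In the embryo, 7 became 4 with quantile normalization (0 higher), 13 with only genes above the median level, 20 with all 19 arrays in 1 fit and 0 to 0 without each array in turn. In the adult, 0 became 10 with all 19 arrays and 0 to 0 without each array. For the difference between them, 2 became 1 with median-centred arrays, 1 with trend and robust fitting, 4 with all 19 arrays and 0 to 2 without each array. For the day change in KO cells, 3 became 6 with the filter, 6 with trend and robust fitting, 5 with all 19 arrays, 0 with the day of the source label and 1 to 5 without each array. For the day change in WT cells, 3 became 8, 5 (trend and robust) and 0 (source label), and 2 to 3 without each array. The source label reversed the log2 day change in KO cells of Idh2 (-0.265), Pcx (-0.17), Pdp1 (-0.16), Slc25a13 (0.13) and Me3 (0.23), and in WT cells of Pcx (-0.33), Pdp1 (-0.22), Slc25a13 (0.32) and Pdp2 (0.044); its groups hold 1 array of each titled day. Over named genes and alternatives, 554 values kept direction and side of the threshold, 100 lost and 16 gained a call. The cause of these shifts was not tested. The genotype comparisons over 4 pairs and at day 0, and the difference of the day change, called 0 members under every alternative run. Over all genes, 257 calls in the embryo became 386 with median-centred arrays, 1296 with the filter and 1527 with all 19 arrays; 6 in the adult became 64 with quantile normalization or centring, 107 with the filter, 78 with trend and robust fitting and 2049 with all 19 arrays; 441 for their difference became 773 with all 19 arrays. Over 4 cell pairs, 64 became 198 with the filter, 245 with trend and robust fitting, 170 with all 19 arrays and 9 with no block and the day of the source label; 41 at day 0 and 59 at day 2 became 88 and 120 with all 19 arrays and 1 and 0 with the source label, which also gave 0 for either day change, against 1265 in KO and 2012 in WT cells; the difference of the day change had 11 in place of 0 with all 19 arrays. Without 1 array or pair, these counts were 20 to 32 over the pairs, 3 to 40 at day 0, 12 to 47 at day 2, 496 to 1282 and 1143 to 1714 for the day change in KO and WT cells, and 206 to 524 for the difference between the brown fat experiments. With 2 to 4 arrays a group, precision is limited.

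With the replicate number as a block, the counts were 0 in the embryo, 2 at day 2 in KO against WT cells (Slc25a10 and Pcx, adjusted p = 0.0338 and 0.0425), 6 for the day change in WT cells and 5 in KO cells; the pairing by number is not established. The block left the other counts of members as they were; over all genes it gave 0 in the embryo, against 257, and 139 in the adult, against 6.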
